A study of Homo sapiens with 26 samples.

Results

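MACF1 (ENSG00000127603) was examined in every deposited list of a study of RNA bound by EZH2, the enzyme of the Polycomb complex PRC2 that methylates histone H3. Its members are all listed regions that carry the symbol MACF1, 21 of 5848 regions in 6 lists. The gene was chosen from the calls themselves, because 8 of its exons were listed in U87MG and some in all 3 cell lines, so its numbers of called exons are given as a description and were not tested. The study's title concerns artifacts from mispriming during reverse transcription.

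RNA immunoprecipitation with an EZH2 antibody, followed by sequencing of small RNA, was done in 3 untreated, established human cell lines, beside precipitates with an IgG2a control antibody and input without antibody. K562 is a chronic myeloid leukaemia line with 1 library of each kind, and T98G and U87MG are glioblastoma lines with 2 of each. A list of full-length targets in untreated T98G is named under 1 iCLIP library, a method that maps RNA crosslinked to a protein (here with 2 EZH2 antibodies); whether 6 long RNA libraries of T98G (EZH2, IgG2a and input, 2 each) entered it is not stated. U87MG given siRNA against EZH2 or against GFP, with 2 polyadenylated RNA libraries per arm, gave a table of changed genes and a list of retained introns. By its name the intron list is limited to introns proximal to EZH2 seRNA, read here as the exons called in small RNA. The treatment label of replicate 2 of siEZH2 names EZH3, and its title, which names EZH2, was followed. The lists hold calls only. Read depth and the spread between libraries are therefore unknown, and a region missing from a list was not called there, which does not show that its RNA was absent.

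MACF1 encodes microtubule-actin crosslinking factor 1, a giant spectraplakin that links actin filaments to microtubules. Its amino terminus binds actin, a plakin domain and a long rod of spectrin repeats follow, and EF-hands and a microtubule-binding domain lie at the carboxy terminus. The protein is known for guiding microtubules along actin during cell migration and for a part in Wnt signalling. In GENCODE release 44 mapped to GRCh37 (the assembly behind hg19) the gene spans 405.9 kb of the plus strand of chromosome 1, from 39546988 to 39952849. Its 58 annotated transcripts give 103 exons once overlapping exons are joined. Exon numbers below are those of the transcript with the longest coding sequence, named here the longest coding transcript, which has 101 exons and encodes 7591 residues.

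The T98G list gives a signed distance for each exon, read here as the distance from the peak middle to the exon middle (the labels do not say so; the sign and the window used below were taken from where AGAT lies beside all T98G peaks). It places 9 MACF1 sites, of which 8 are shown because they locate the sequenced small RNA within the gene. Each line gives the reference sequence of GRCh37 on the RNA strand, from 20 bases before to 40 bases after the peak middle (10 and 20 for the site in the 3′ UTR). Capitals mark AGAT, extended to AGATC where the match goes on, or AAGAGC, wherever either starts 5 to 25 bases after the middle. AGATCG and AAGAGC are 2 stretches of the 3′ sequencing adapter, known from general knowledge of such kits and not from the labels; in the adapter the second starts 7 bases after the first. The lines for exons 26, 73 and 81 run past the 3′ end of the exon into the intron.
exon 26, chr1:39776630-39776689: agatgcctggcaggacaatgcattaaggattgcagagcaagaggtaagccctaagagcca
exon 49, chr1:39827279-39827338: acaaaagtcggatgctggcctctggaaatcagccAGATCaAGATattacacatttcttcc
exon 68, chr1:39898753-39898812: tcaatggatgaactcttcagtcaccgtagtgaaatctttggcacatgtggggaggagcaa
exon 73, chr1:39906746-39906805: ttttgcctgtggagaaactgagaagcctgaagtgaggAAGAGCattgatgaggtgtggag
exon 79, chr1:39909136-39909195: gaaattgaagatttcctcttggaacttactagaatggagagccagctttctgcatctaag
exon 81, chr1:39913214-39913273: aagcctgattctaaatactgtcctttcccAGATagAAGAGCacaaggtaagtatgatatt
exon 92, chr1:39926387-39926446: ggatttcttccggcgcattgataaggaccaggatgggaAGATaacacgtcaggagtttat
exon 101, chr1:39952592-39952621: agctctaccaatgaactgtttagaaacaag

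The 3 small RNA lists together held 11 distinct MACF1 exon regions. K562 had 3, T98G 9 and U87MG 8. These touched 2.91% of the 103 joined exons in K562 (95% Wilson interval 0.995 to 8.22), 8.74% in T98G (4.67 to 15.8) and 7.77% in U87MG (3.99 to 14.6). Over all joined exons of protein-coding genes the shares touched by a call were 0.155%, 1.01% and 0.267%. The choice of the gene rested on these calls, so nothing is read from the contrast. The intervals cover counting error only, and exons of 1 transcript are not independent.

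Each called region held coding sequence of the longest coding transcript, and 1 of them also held the 3′ UTR. Both ends of 8 regions coincided with an exon of that transcript, and these were 108 to 318 bases wide with a GC content of 40.1% to 50.6%. The remaining 3 regions were wider than the exon they hold. The region at exon 52 was 995 bases wide against 118 for the exon, with the ends of an exon of a transcript without a defined coding sequence. The region at exon 94 was 1298 bases wide against 75, with the ends of an exon of a transcript annotated as retaining an intron. The third, 2577 bases wide with 384 coding bases, joined exons 100 and 101 and ran to the end of the gene. Most of each of these 3 regions thus lay outside the coding sequence of the longest coding transcript. None of the first 25 exons, which encode the actin-binding end and the residues after it, was called in any line.

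For each region 1 exon identifier is printed here and below, although a region can carry several exon names. The region with exons 100 and 101 carries the most, 7. Exons 49 and 73 were called in all 3 lines. Exon 49 (chr1:39827032-39827349, 318 bases, ENSE00003535713) encodes codons 4189 to 4294. Exon 73 (chr1:39906675-39906797, 123 bases, ENSE00003616751) encodes codons 6187 to 6227, in the rod of the protein.

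A further 5 exons were called in both glioblastoma lines and not in K562. They were exon 26 (chr1:39776503-39776672, ENSE00003591734), which encodes codons 1071 to 1127, exon 79 (chr1:39909118-39909246, ENSE00001751465), exon 81 (chr1:39913104-39913259, ENSE00001673140), exon 92 (chr1:39926304-39926466, ENSE00003492120) and the region at exon 94 (chr1:39929284-39930581, ENSE00003601779). Exons 79 and 81 encode codons 6472 to 6514 and 6573 to 6624 of the spectrin repeat rod. Exon 92 encodes codons 7158 to 7212, part of the EF-hands, which bind calcium.

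The remaining 4 regions were each called in 1 line. T98G alone had exon 68 (chr1:39898720-39898827, ENSE00001712868; codons 5857 to 5892) and the region with exons 100 and 101 (chr1:39950273-39952849, ENSE00001741989), whose last 1386 bases are 3′ UTR. K562 alone had the region at exon 52 (chr1:39838151-39839145, ENSE00001693302), and U87MG alone had exon 59 (chr1:39888046-39888207, ENSE00001784267; codons 5310 to 5363).

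Set against each list, T98G and U87MG shared 7 MACF1 exons, which were 77.8% of those in T98G (45.3 to 93.7) and 87.5% of those in U87MG (52.9 to 97.8). K562 shared 2 exons with each of the other lines, 66.7% of its 3 (20.8 to 93.9), 22.2% of those in T98G (6.32 to 54.7) and 25% of those in U87MG (7.15 to 59.1). Over the whole lists, 16.9% of T98G exons were called in U87MG and 65.0% of U87MG exons in T98G. Of the K562 list, 45.6% was called in T98G and 19.9% in U87MG, and in the other direction K562 held 7.03% of the T98G list and 11.8% of the U87MG list. The gene was picked for its many calls in U87MG and for being called in all 3 lines, so its higher shares are not evidence of greater sharing.

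**Figure D1:**
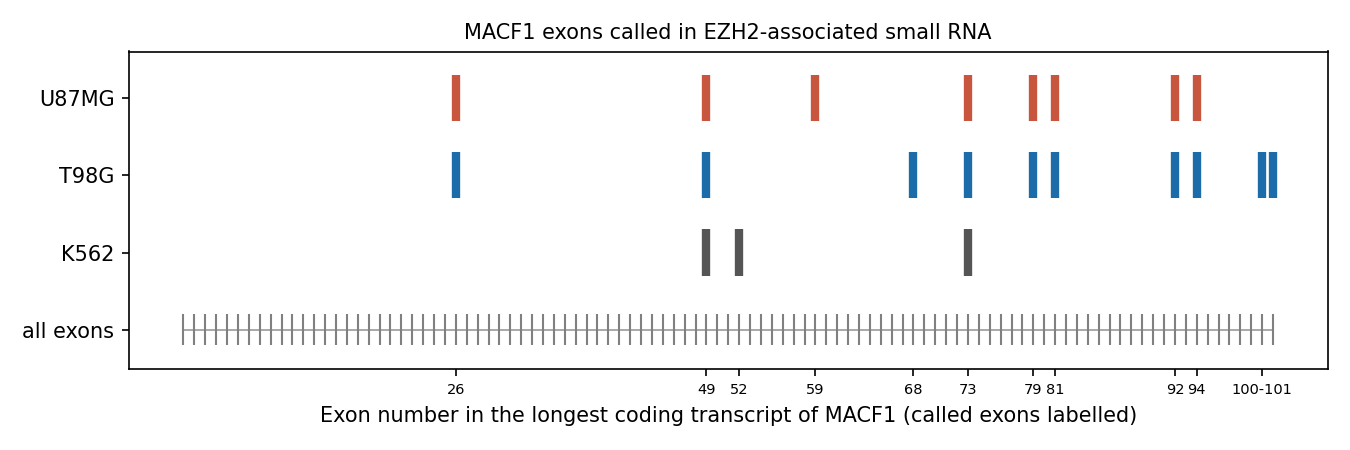
MACF1 exons called in each line, by exon number in the longest coding transcript. Grey ticks are its 101 exons and coloured bars are exons touched by a called region; the bars for exons 49 and 73 appear in all 3 lines, and none lies before exon 26.

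In T98G, the peak middle fell in coding sequence at 8 of the 9 sites and in the 3′ UTR at 1. In exons 26, 49 and 81 it lay 23, 51 and 26 bases before the 3′ end of the exon, at 86.5%, 84.0% and 83.3% of the exon's width. Exon 73 had its peak 32 bases before its end and exon 92 had its peak 60 bases before. The peak of exon 79 lay nearer the 5′ end, 38 of 129 bases from the start, and that of exon 68 was 1 base 5′ of the exon's middle. Among MACF1 regions up to 400 bases wide, 5 of 7 peaks were 3′ of the region's middle, and over all 1740 such T98G regions 50.8% were. The peak of exon 101 was 248 bases before the end of the gene. The 30 bases around each of the 9 middles occurred 1 time in GRCh37, counting both strands, so none of these sites has an exact copy elsewhere in the assembly.

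**Figure D2:**
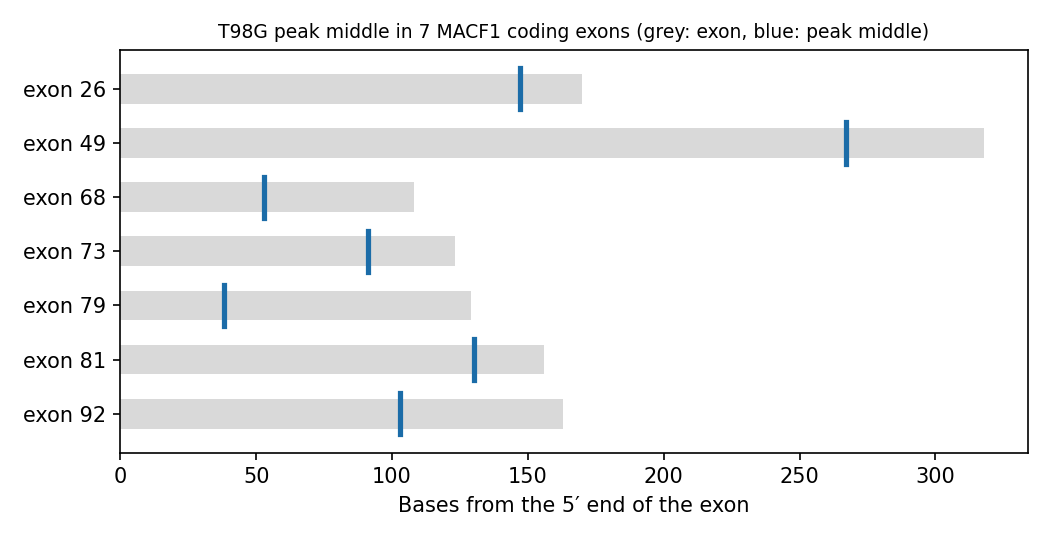
Place of the T98G peak middle (blue) in 7 MACF1 coding exons (grey bars, to scale in bases). The peaks of exons 26, 49 and 81 sit 23 to 51 bases before the 3′ end, and that of exon 79 lies 38 bases from the 5′ end.

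The bases after the peak middle differed from site to site. AGAT started 11 to 15 bases after the middle at 2 of the 9 MACF1 sites, and over all T98G peaks whose middle falls on a base boundary the share was 25.8% of 2463. At exon 49, which is one of them, it started at 15 bases and went on to AGATC, and a second AGAT followed at 21 bases. AGAT stood at 10 bases in exon 81, just outside the window, and at 19 bases in exon 92. In the window 20 bases further, 0 of the 9 sites and 3.41% of all peaks held AGAT. The sign and the window rest on AGAT over all peaks, so the share over all peaks is a description only. With 9 sites, 2 cannot be told from a share like that of all peaks.

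AAGAGC, the later stretch of the adapter, started 18 bases after the middle in exon 73, which has no AGAT there. That is the place it would take if the first stretch started at 11 bases. Over all T98G peaks, 6.98% held AAGAGC at 18 to 22 bases and 0.487% held it 20 bases further. Exon 81 held AGAT at 10 bases and AAGAGC at 16 bases, 1 base closer together than in the adapter. When both 6-base stretches were compared at their adapter spacing with the first starting at 11 to 15 bases, the best of these starts matched a median of 7 of 12 bases over the 9 sites (lowest 5, highest 9). In the window 20 bases further the median was 6 (lowest 4, highest 7). Over all peaks the medians were 6 and 5. At least 8 of the 12 bases matched at 22.2% of MACF1 sites and at 22.5% of all peaks. In the window 20 bases further, 0 of the 9 MACF1 sites and 1.58% of all peaks matched that well. The window was taken from AGAT, which is part of the 12 bases, so a better match there than 20 bases further is partly built in. The highest MACF1 value, 9, was at exon 73, followed by 8 at exon 92, and the lowest, 5, was at exon 81 and at the 3′ UTR site. This comparison of 12 bases and the search for AAGAGC were chosen after the sequences had been seen.

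**Figure D3:**
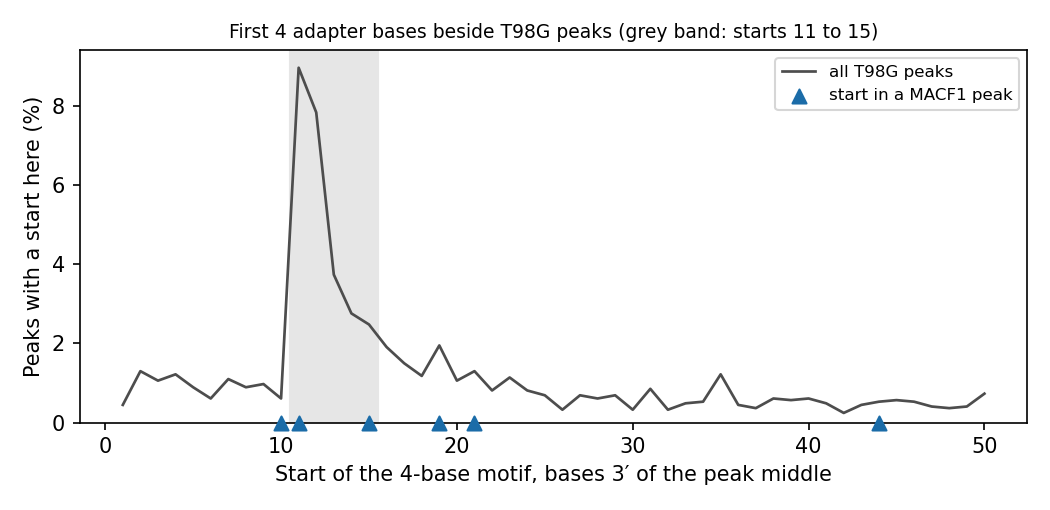
Share of 2463 T98G peaks (line) with the first 4 adapter bases starting at each position 3′ of the peak middle, with triangles at the starts found in MACF1 sites. The line is highest at 11 bases (8.97%); MACF1 starts lie at 10, 11, 15, 19 and 21 bases and once at 44.

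K562 and U87MG have no peak positions, so whole exons were searched for AGAT and for the longer stretches, on both strands. The 8 regions that match an exon held 15 copies of AGAT on the RNA strand and 2 on the opposite strand. The 3 wider regions held as many or fewer on the RNA strand: 6 against 6 in the region at exon 52, 9 against 11 in the region at exon 94 and 11 against 11 in the region with exons 100 and 101. Over the 12 exons of the longest coding transcript that a called region holds, the copies were 22 on the RNA strand and 11 on the opposite strand, against 131 and 95 over the 89 uncalled exons. The called exons held 3292 bases and the uncalled 21027, with a median GC content of 44.1% and 48.0%. Per base, copies on the RNA strand were thus close in both sets, and copies on the opposite strand were fewer in the called exons. Each of the 8 matching regions had at least 1 copy on the RNA strand, 6 had more copies there than on the opposite strand, and 2 had as many. Among MACF1 coding exons of 100 to 200 bases, AGAT was on the RNA strand of 8 of 9 called exons (88.9%) and of 33 of 52 uncalled exons (63.5%). On the opposite strand it was in 3 of the called (33.3%) and in 20 of the uncalled (38.5%). Counted among the 9 are exons 52 and 100, which lie inside wider called regions and are not shown to hold the small RNA. The T98G peak of the region with exon 100 lay in exon 101. Over 94713 exons of that width in protein-coding genes the shares were 48.3% on the RNA strand and 41.2% on the opposite strand. These shares are descriptions with no test, since exons of 1 transcript are not replicates. AAGAGC was in 2 of the 9 called exons, 5.77% of the uncalled ones and 5.61% of exons of all genes. AGATCG was in none of these 9, and over called exons of any width it was in 1 of 12, against 3.37% of the uncalled. A match describes these letters only.

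The exons that just 1 line other than T98G called are shown as sequence because no peak places the small RNA in them. Capitals mark AGAT and, where the match goes on, AGATC. For K562 only the 118 bases of exon 52 are shown, out of a called region of 995 bases with 6 copies of AGAT on each strand; in the exon AGAT starts at base 9. In exon 59, called in U87MG, it starts at bases 32 and 128 of 162.
exon 52, chr1:39838151-39838268: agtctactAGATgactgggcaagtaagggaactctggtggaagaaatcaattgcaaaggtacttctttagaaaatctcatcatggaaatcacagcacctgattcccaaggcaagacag
exon 59, chr1:39888046-39888207: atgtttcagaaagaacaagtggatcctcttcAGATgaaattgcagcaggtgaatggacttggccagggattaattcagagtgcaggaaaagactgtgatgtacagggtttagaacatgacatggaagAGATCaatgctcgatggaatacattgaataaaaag

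Exon 59 is also the exon beside which a retained intron was listed in U87MG. By its name that list holds only introns near such exons, so a called U87MG exon beside the intron follows from how the list was made. The listed intron (chr1:39882153-39888047, 5895 bases) lies 5′ of exon 59 and overlaps it by 2 bases. It takes up the last part of the intron between exons 58 and 59 (chr1:39854331-39888045), and no annotated MACF1 transcript has an exon inside it. No annotated MACF1 exon ends within 2 bases of the listed start, so its 5′ end is not an annotated MACF1 splice site. This was 1 of 43 rows, and 0.169% of protein-coding symbols had a row. That share understates how common a row is among genes that could enter the list. Protein-coding symbols with a row numbered 34, and those with a called exon in U87MG numbered 520. The intron's score in the authors' deposited table is 1.17, number 34 from the top in a list that runs from 1.03 to 2.68. Its scale is not stated. Neither T98G nor K562 had a call at exon 59, and no MACF1 intron beside the 7 exons shared with T98G was listed.

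MACF1 was absent from the remaining lists. No full-length target of T98G carried its symbol or touched its gene body on the same strand, among 824 rows, whereas 4.27% of protein-coding symbols were listed there. It was likewise absent from the 1342 rows of the siEZH2 table, where 6.30% of protein-coding symbols were listed, 3.13% as higher and 3.17% as lower. Its name gives 0.05 as the limit of the adjusted p, so MACF1 was not among the listed changes, and its level in these cells is not given. These percentages count symbols that match GENCODE, and older symbols in the lists do not match.

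MACF1 had the most called exons in U87MG, where MYCBP2 came next with 5. In T98G it was tied at 9 with DYNC2H1, a dynein heavy chain, and COL12A1 and UBR4 followed with 7. In K562 it was tied at 3 with BRWD1, FLNA, GPR98 and UBR4. For scale, 142 other protein-coding genes have at least 60 joined exons. MACF1 was picked for its number of called exons, so its place above most of them follows from that choice and nothing is read from it. Of these, 130 had no called exon in K562, 84 had none in T98G and 106 had none in U87MG. The median was 0 in each line, and DMD, with 102 joined exons, had none in any. Expression in the lines is not given, so genes that the cells do not express cannot be told apart from genes whose RNA was not called.

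**Figure D4:**
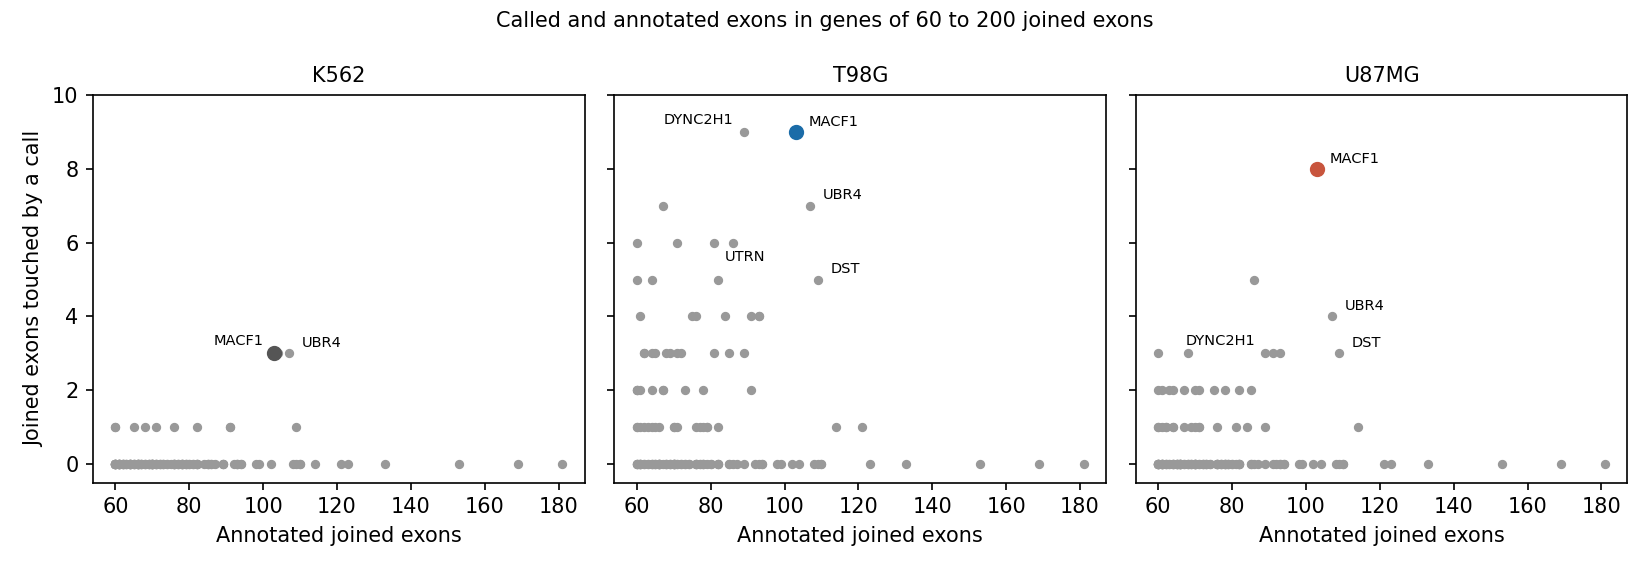
Joined exons touched by a called region against annotated joined exons, for each gene with 60 to 200 joined exons (1 point per gene, MACF1 in colour). MACF1 stands highest in U87MG at 8, level with DYNC2H1 at 9 in T98G and with UBR4 at 3 in K562, where a further point at 3 lies under that of MACF1; most genes lie at 0 in K562.

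The genes most like MACF1 were those with the closest numbers of called exons, by Euclidean distance over the 3 small RNA lists among 98 symbols called in all of them. UBR4, a giant ubiquitin ligase, was closest (distance 4.47) with 3 exons in K562, 7 in T98G and 4 in U87MG. DST, the other mammalian spectraplakin, and DYNC1H1, the heavy chain of cytoplasmic dynein, came next at 6.71, each with 1, 5 and 3. ATM, a kinase of the DNA damage response, and USP24, a deubiquitinase, followed at 7, each with 1, 6 and 2. UBR4, DYNC1H1 and ATM were also full-length targets of T98G, unlike MACF1, DST and USP24. UBR4 and DYNC1H1 were in the siEZH2 table too, and MACF1, DST, ATM and USP24 were not.

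Genes related to MACF1 were taken from a list of 43 further genes of the plakin and spectrin families, microtubule ends and Wnt signalling. In the small RNA lists, 2 of the 43 had a called exon in K562, 17 in T98G and 6 in U87MG, where 1.60%, 8.49% and 2.58% of protein-coding symbols had one. These shares, here and for the groups below, take no account of exon number, and a gene with more exons has more places for a call. Among the 43, joined exons ran from 4 (EPPK1) to 153 (SYNE1), and many of these genes are large. The contrast was not tested, and nothing is read from it. Among the 6 plakins, DST was the only one with a called exon; PLEC (plectin) was a full-length target, and DSP, EVPL, PPL and EPPK1 were in no list. Of 17 genes with spectrin repeats, 6 had called exons in T98G. Among them, UTRN (utrophin) had 6, the spectrins SPTBN1 and SPTAN1 had 3 and 2, and the actin crosslinkers ACTN1 and ACTN4 had 3 and 1. SPTBN1 and SPTAN1 had 1 each in U87MG, and none of the 17 was called in K562. SPTAN1, SPTBN1 and SYNE1, which links the nucleus to the cytoskeleton, were among the full-length targets.

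Of 14 genes of microtubule ends and their partners, which include minus-end proteins and ELMO1, 7 had called exons in T98G, where 8.49% of all protein-coding symbols had one. CAMSAP2, which caps microtubule minus ends, had 3, and MAPRE1, which encodes the plus-end protein EB1, and DCTN1, a dynactin subunit, had 2 each. CLASP1, CLASP2, CLIP1 and CKAP5 had 1 each, and CLASP2 and CLIP1 also had 1 in U87MG. Of the 6 Wnt genes, 3 had called exons in T98G, set against the same 8.49%. The coreceptor LRP6 had 2 in T98G, CTNNB1 (beta-catenin) had 2 there and 1 in K562, and AXIN1 had 1 in each glioblastoma line. CTNNB1 and the coreceptor LRP5 were full-length targets.

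In the authors' deposited table of siEZH2 against siGFP, 3 of the 43 were listed as higher and 4 as lower, where 3.13% and 3.17% of all protein-coding symbols were. The log2 fold changes in the authors' deposited table were 1.07 for SYNE3, 0.84 for MAPRE2 and 0.64 for MAPRE1 among the higher genes. Among the lower genes, the authors' deposited table gave -0.80 for SPTAN1, -0.76 for SYNE1, -0.67 for CLIP1 and -0.63 for LRP6. The table carries no errors. SPTAN1, CLIP1, MAPRE1 and LRP6 also had small RNA exons called in T98G, which is not the line given siRNA. In U87MG, the line given siRNA, SPTAN1 and CLIP1 had 1 each, and MAPRE1 and LRP6 had none. SYNE1, SYNE3 and MAPRE2 had none in either line. Among all protein-coding symbols, 8.49% had a called exon in T98G and 2.58% in U87MG.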

How the data were processed

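Per the labels, the authors' small RNA processing used cutadapt (adapter trimming), BWA (alignment to hg19), bedtools (counts per exon), DESeq2 (exon calls) and pyicoclip (peaks). Thresholds and the exon annotation are not given in the sources used here. In the T98G list the deposited score is a signed distance in bases. The deposited intron score has no stated scale. The siRNA table gives the authors' log2 fold change, with siEZH2 over siGFP taken from the order of names. The value that the K562, U87MG and full-length rows carry is how many names are joined in them; it was not used. Columns with values of single libraries numbered 0, so depth is unknown and no test was made.

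Rows were matched by symbol and shared exons by an overlap of at least 1 base on the same strand. The peak middle was the exon middle minus the distance, and the 2463 of 2573 T98G rows (95.7%) where it falls on a base boundary were used. Sequences came from GRCh37 and exons from GENCODE release 44, read with pysam 0.24.0; coordinates are 1-based. Wilson intervals came from scipy 1.17.1. The motif search was tested on simulated data. Genes named are MACF1, related genes with a row in a list and the 5 closest in called exons. Genes added after their values were seen are those tied with or next to MACF1 in a list, DMD, and the plakins in no list. One related gene and the sequence of 1 site are not reported here. MACF1 and all lists were chosen with earlier results of these data known.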

Additional observations from a re-analysis of the deposited data

How the results depend on the processing

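The 3 numbers of called exons, the 3 numbers shared between lines, the 3 shares of annotated exons and the presence in the other 3 lists changed by less than 1.5 times, or stayed within their interval, when rows were matched by the gene body, when an overlap of 50% or identical ends were required, and when exons of the longest coding transcript alone were counted. Counting each distinct exon name joined in a row gave 6 for K562, 22 for T98G and 15 for U87MG, because alternative exons share a row. The number of T98G sites with AGAT in the window, 2 of 9, was 0 with the other sign of the distance, 1 with a start at 11 bases only and 4 with starts at 5 to 25 bases. No paired analysis was possible because the lists hold no values for single libraries; leaving out a library could not be done for the same reason. Depth is unknown, so an exon missing from a list cannot be told apart from one that was too thinly sequenced.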
